A study of Equus caballus with 12 samples.

Results

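Of the 31217 genes listed in RNA-seq count files of horse liver, heart and lung, 259 were restricted to the liver by level. A gene was counted as liver-restricted when its median over the 4 liver libraries was at least 200 normalised read counts and at least 100 times both the heart median plus 1 and the lung median plus 1. Normalised read counts are raw counts divided by a size factor for each library, the median ratio to a common reference over the 8968 genes with at least 10 counts in every library. The choice used the measured levels of liver against heart (HvsLR) and liver against lung (LvsLR), so these contrasts are described below without a test. The comparison of lung with heart (LvsH) was not used to choose the genes, although the rule set an upper limit for both tissues, and it is the only comparison tested.

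The study asked how the transcriptomes of the 3 tissues differ. Liver (LR), heart (H) and lung (L) of 4 horses gave 12 libraries, with 1 per tissue and horse. Replicate numbers are horse numbers, and libraries with the same number were made from 1 animal. The animals were young healthy stallions of a cold-blooded type, with no treatment and no genotype given, and per the methods of the study the pieces were cut from the left ventricle, the caudal lobe of the right lung and the right lobe of the liver. Each piece was bulk tissue, so fewer cells of a type and less RNA per cell cannot be told apart.

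The liver takes up nutrients from the portal blood, makes most of the proteins of blood plasma, forms bile and breaks down foreign compounds. Most of its mass is hepatocytes, which carry out these functions with a set of secreted proteins, enzymes and transporters that other tissues make little of. The heart and lung are built mainly from muscle, vessel and airway cells, whose transcriptomes share the general cell functions with the liver but few of the products of hepatocytes. The files give genes by Ensembl identifier and pair them with no symbol, and symbols that the study gives for some identifiers in its own tables were left out by choice. The roles of the 259 genes and the known markers of hepatocytes are therefore not described, and genes are given by identifier only.

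Heart replicate 2 stood apart from the other heart libraries, and results that rest on the heart are given with and without it. The smallest library, liver replicate 4, held 4345694 reads in genes and the largest, heart replicate 1, held 23474239, and intervals given for counts cover counting error only. Heart replicate 2 held 13236749, and its reads outside the listed genes, aligned to several places or unassigned made up 37.0% of the listed reads, compared with 35.0% to 36.8% in the other heart libraries. Without heart replicate 2 the rule chose 275 genes, and all 259 were among them. That was largely set in advance. For 256 of the 259 this library was above all other heart libraries, so leaving it out does not raise their heart median.

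The 259 liver-restricted genes took 48.8%, 44.5%, 50.8% and 44.1% of the gene counts in liver replicates 1 to 4, a mean of 47.0% ± 3.30 (SD, n = 4). In the heart libraries the same genes took 0.0238%, 1.21%, 0.10% and 0.0405% of the counts. The lung libraries gave 0.0820%, 0.107%, 0.159% and 0.0682%. The liver libraries were close to each other, the lung libraries overlapped with heart replicates 1, 3 and 4, and heart replicate 2 was above every other heart and lung library. In raw reads this was 160614 counts in heart replicate 2, compared with 5588, 6148 and 9169 in the other heart libraries.

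**Figure D1:**
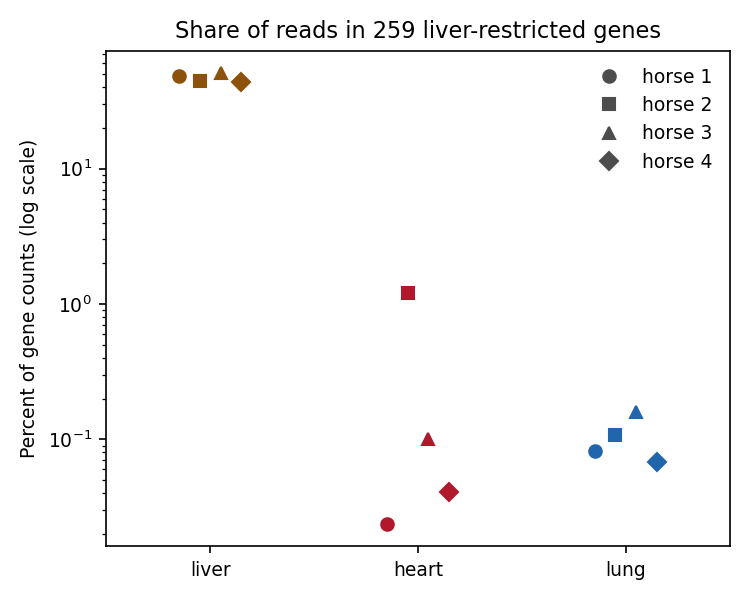
Percent of gene counts taken by the 259 liver-restricted genes (log axis) in each library, by tissue, with 1 point per library and the horse given by the shape. The 4 liver points lie between 44.1% and 50.8%, the square of heart replicate 2 at 1.21% and the remaining heart and lung points at 0.159% or below.

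Few genes carried much of the liver share. The 10 most abundant liver-restricted genes took 27.1% ± 2.99 of the liver gene counts (SD, n = 4) and the other 249 took 19.9% ± 0.476. Between 6 and 8 genes held 50% of the liver-restricted counts in each liver library. Liver medians ran from 206 to 1100385 normalised read counts, with quartiles of 1276 and 18142 around a median of 5356. A liver median of 200 to under 1000 was seen for 47 genes, 1000 to under 10000 for 124, 10000 to under 100000 for 74 and 100000 or more for 14. Counts were not divided by gene length, so that ranks between genes are ranks of reads and not of transcripts.

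Among the 6119 genes with a liver median of at least 200, 4.23% were liver-restricted. The share was larger at the top of the list. Of the 10 genes with the most reads in the liver 8 were liver-restricted, of the first 50 28, of the first 100 60, of the first 500 145 and of the first 1000 184.

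The most abundant liver-restricted gene was ENSECAG00000010305, with 1806527, 1022296, 1177239 and 1023531 normalised read counts in liver replicates 1 to 4. It alone took 9.53%, 5.91%, 6.06% and 6.48% of the liver gene counts. The highest liver library was replicate 1, and the other three lay close together. In heart replicates 1 to 4 its level was 611, 32915, 2134 and 1087 normalised read counts, and in lung replicates 1 to 4 it was 496, 250, 615 and 324. The gene was therefore read in every heart and lung library, and heart replicate 2 lay above the other 7.

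ENSECAG00000021580 followed, with 779751, 748224, 1479461 and 633196 normalised read counts in liver replicates 1 to 4. Here liver replicate 3 was the highest. Heart replicates 1 to 4 held 349, 23684, 2738 and 840 normalised read counts of it, and lung replicates 1 to 4 held 840, 2389, 1364 and 605. With the exception of heart replicate 2, the heart and lung libraries overlapped for this gene.

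Most liver-restricted genes had reads in the heart and lung libraries. In heart replicates 1 to 4, 201, 257, 200 and 218 of the 259 genes had at least 1 count, and in lung replicates 1 to 4 the numbers were 206, 217, 239 and 232. A single gene, ENSECAG00000030731, had no count in any heart or lung library, against 410, 65.7, 220 and 251 normalised read counts in liver replicates 1 to 4. Without heart replicate 2, 6 genes had no count in the remaining heart and lung libraries. No count in any lung library was found for 9 genes, and none in heart replicates 1, 3 and 4 for 18. At least 10 counts, in contrast, were reached by 83, 239, 84 and 116 genes in heart replicates 1 to 4 and by 91, 110, 162 and 128 in lung replicates 1 to 4.

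Each gene's level in a heart or lung library was then expressed as a percent of its own liver median. Over the 259 genes the median was 0.0470%, 3.01%, 0.243% and 0.104% in heart replicates 1 to 4. The medians in lung replicates 1 to 4 were 0.0441%, 0.0372%, 0.0783% and 0.0451%. Heart replicate 2 thus stood 12.4 times above heart replicate 3, the second highest. A level of at least 1% of the liver median was reached by 250 genes in heart replicate 2, compared with 1, 10 and 3 in heart replicates 1, 3 and 4 and with 2, 7, 7 and 3 in lung replicates 1 to 4.

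The raised level in heart replicate 2 was seen across the liver-restricted genes. For 254 of the 259 this library was the highest of the 8 heart and lung libraries, and for 256 it was above all other heart libraries. The quartiles over genes were 2.32% and 3.95%, and the 5th and 95th percentiles 1.32% and 5.84%. The median percent was 2.93%, 2.91%, 3.18% and 2.74% in the 4 bands of liver level, from the lowest band to the highest. Across the genes, none of which is an independent replicate, the level in heart replicate 2 ranked like the liver median, with a Spearman's rho of 0.97 (n = 259 genes). In heart replicates 1, 3 and 4 rho was 0.82, 0.91 and 0.91, and in lung replicates 1 to 4 it was 0.82, 0.70, 0.84 and 0.78, where fewer genes had more than a few counts.

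**Figure D2:**
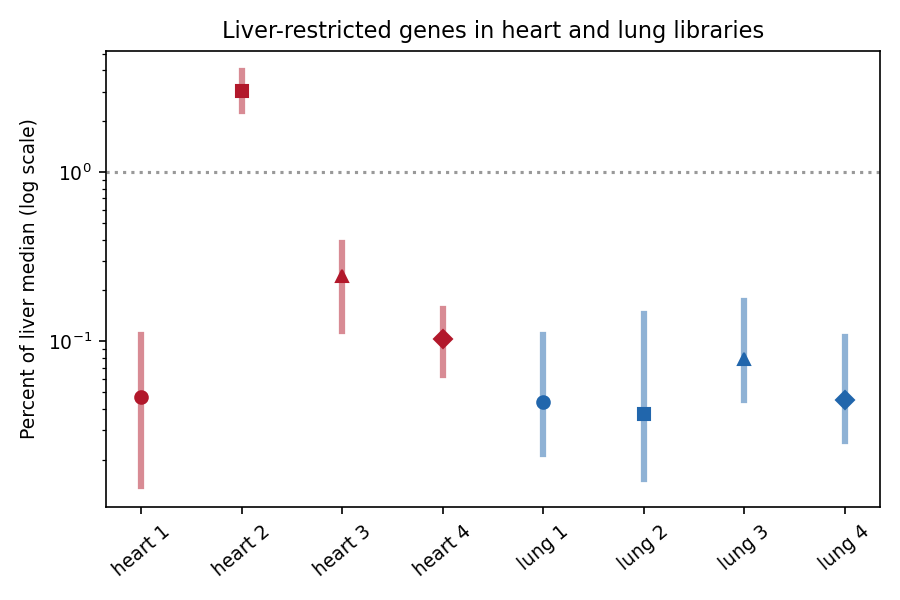
Percent of the liver median (log axis) at which the 259 liver-restricted genes stood in the heart and lung libraries, with points for the median over genes and bars from the lower to the upper quartile, and a dotted line at 1%. Heart replicate 2 has a median of 3.01% and is the only library whose bar lies above the line, while the other heart medians run from 0.0470% to 0.243% and the lung medians from 0.0372% to 0.0783%.

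At the ends of this range in heart replicate 2, ENSECAG00000018357 stood at 11.7% of its liver median. Its level in liver replicates 1 to 4 was 537, 1185, 302 and 32.7 normalised read counts, with the highest value in the liver of the same horse. The next, ENSECAG00000014889 at 8.83%, was measured at 1347, 3295, 411 and 581 in liver replicates 1 to 4, again highest in replicate 2. At the other end, besides ENSECAG00000030731, ENSECAG00000028064 had no count in heart replicate 2 and 378, 45.7, 187 and 280 normalised read counts in liver replicates 1 to 4. Both genes at 0% had their lowest liver level in liver replicate 2, and both genes at the upper end their highest.

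**Figure D3:**
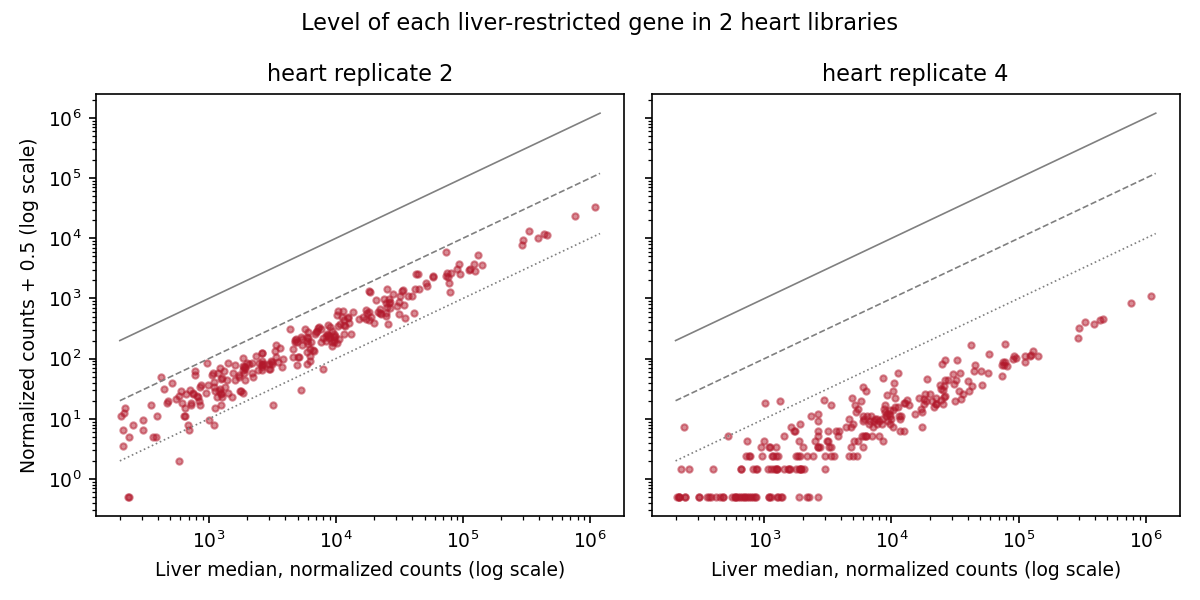
Normalised read counts plus 0.5 of each liver-restricted gene in heart replicate 2 (left) and heart replicate 4 (right) against its liver median, both axes on a log scale and 1 point per gene. The solid, dashed and dotted lines mark 100%, 10% and 1% of the liver median. In heart replicate 2, 250 of the 259 points lie at or above 1% and follow the slope of the lines, and in heart replicate 4 only 3 do.

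To compare the genes one by one, each gene's level in a heart or lung library was set against the deviation of each liver library from the gene's mean over the 4 livers, on the log2 scale, over genes with at least 5 counts in the library. In heart replicate 2 the correlation across genes was 0.86 with the liver of horse 2 (Pearson's r, n = 249 genes). With the livers of horses 1, 3 and 4 it was -0.49, -0.19 and -0.06. Spearman's rho gave 0.76 with horse 2, and -0.34, -0.06 and -0.42 with horses 1, 3 and 4. Genes that were high in the liver of horse 2 relative to the other livers were thus also high in the heart library of that horse. The level and the deviations of a gene are both relative to its liver mean, and its 4 deviations sum to 0, so the 4 correlations of a library are not independent, and genes are not independent replicates.

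Some genes differed strongly between the livers. When the genes with a 5-fold or larger range over the livers were left out, r with the liver of horse 2 was 0.77 (n = 233 genes), and the other three values were -0.36, -0.11 and -0.49. For heart replicates 3 and 4, r with the liver of the same horse was 0.43 (n = 125 genes) and 0.50 (n = 153 genes), and for heart replicate 1 it was 0.07 (n = 130 genes). After the genes with a 5-fold range were left out, these were 0.17, 0.23 and 0.06. In lung replicates 1 to 4, r with the liver of the same horse was -0.05, 0.02, 0.27 and 0.29. The liver of the same horse gave the highest r for 5 of the 8 heart and lung libraries, and the highest rho for 6. In heart replicate 1 and lung replicates 1 and 2, r was highest with the liver of horse 4, at 0.11, 0.19 and 0.31. Without the genes with a 5-fold range, r in lung replicates 1 to 4 was -0.03, -0.01, 0.08 and 0.32 with the liver of the same horse. With the liver of horse 4 it was 0.20, 0.31, 0.20 and 0.32, so a match by horse was not general. Whether liver RNA was present in a heart or lung library was not tested.

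**Figure D4:**
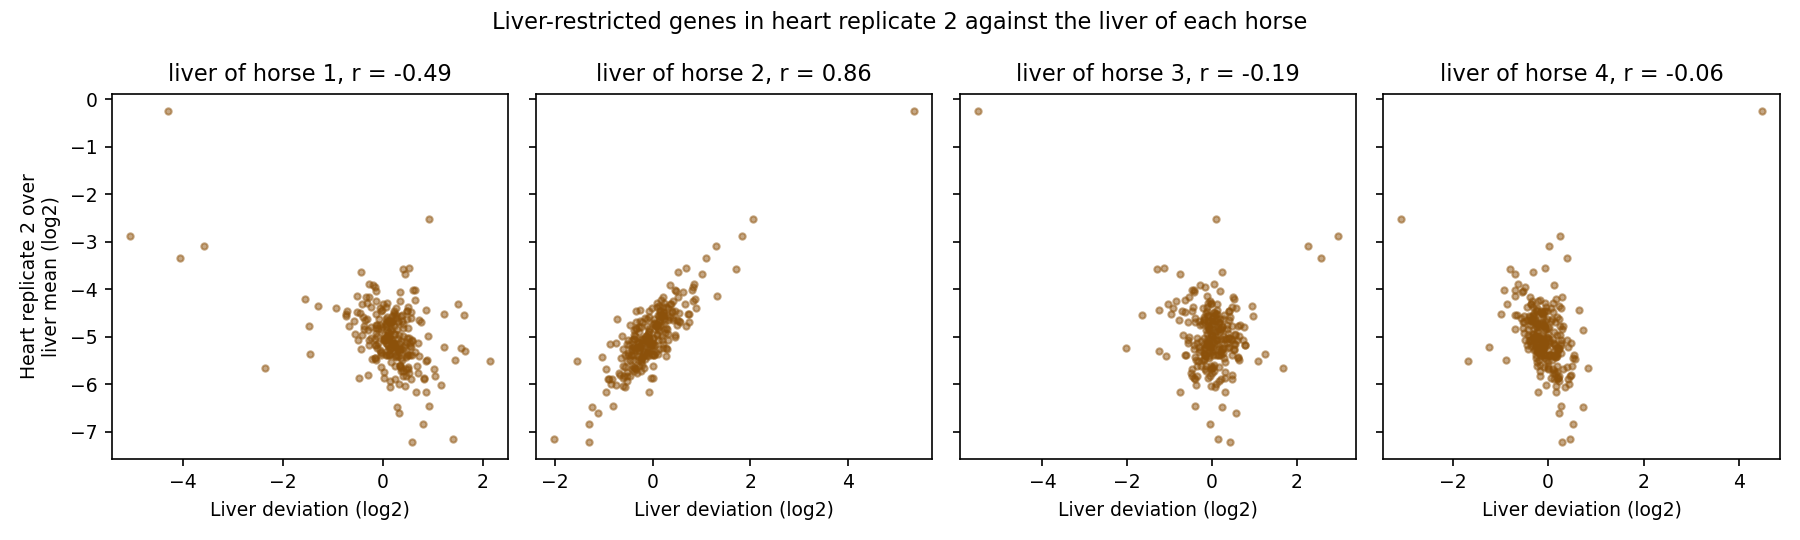
Liver-restricted genes in heart replicate 2, each as log2 of its level over its liver mean, against the log2 deviation of 1 liver library from that mean, with 1 panel per horse and 1 point per gene (249 genes). The points rise along a line with the liver of horse 2 (r = 0.86) and do not with horses 1, 3 and 4 (r = -0.49, -0.19 and -0.06).

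Within single horses, the liver exceeded 100 times both the heart and the lung level plus 1 for 248 genes in horse 1, 0 in horse 2, 239 in horse 3 and 249 in horse 4. The rule chose the genes by the medians of these same libraries, so a pass in most horses is largely set by it. These numbers describe the choice, and no share over all genes stands beside them. Against the lung alone, 245 genes passed 100 times in horse 2. Against its heart 0 did, although all 259 passed 10 times. When the genes were chosen from 3 horses and looked up in the one left out, the rule gave 248, 279, 270 and 255 genes without horses 1 to 4. Of these, 232, 0, 232 and 237 passed 100 times both tissues in the horse that had not been used. Against the lung of the left-out horse alone, 237, 251, 250 and 242 passed.

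Genes lay close to the limits of the rule on both sides. Just inside the fold limit, ENSECAG00000018315 had a liver median of 11157 normalised read counts, just over 100 times its heart median plus 1. Just outside it, ENSECAG00000011854 had a liver median of 117258, 99.2 times its lung median plus 1. At the level limit, ENSECAG00000015764 had a liver median of 206 and ENSECAG00000010695, just outside, one of 199. The latter was read at 345, 1233, 52.5 and 10.9 normalised read counts in liver replicates 1 to 4 and would have passed the fold limit.

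As a description of the genes chosen, the median fitted log2 fold change was -10.86 for LvsLR and -6.84 for HvsLR over the 258 genes that passed the filter on low counts. Without heart replicate 2 the latter was -9.71. The rule fixes the sign and the minimum size of the differences between tissue medians, so no calls are given for these contrasts. Fitted fold changes do not follow the medians and are not held to that minimum.

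The LvsH comparison asked whether the low levels in heart and lung differed. It was tested with edgeR's quasi-likelihood test over all genes that passed the filter on low counts, and DEGs had an adjusted p below 0.05 and at least a 2-fold change. With the heart and lung libraries alone in the filter and the fit, 129 of the liver-restricted genes were tested. Of these, 89 were DEGs towards the heart and 0 towards the lung, beside 20% and 25.3% of all genes tested. The filter and fit over all 12 libraries, used for the numbers that follow, tested 258. Of the 258 genes, 195 were DEGs with a higher level in the heart and 0 with a higher level in the lung. Of all 15436 genes tested in that fit, 20.7% were DEGs towards the heart and 24.5% towards the lung. A higher fitted level in the lung was found for 5 genes and in the heart for 252. At an unadjusted p below 0.05 in edgeR's test, 207 genes were higher in the heart and 0 in the lung. DESeq2 called 177 of 259 genes higher in the heart and likewise 0 higher in the lung, with backgrounds of 15.6% and 18.2%. It gave no adjusted p for 36 of the 259, so its 177 and the 195 are not like counts. The median fitted log2 value over the 258 genes was -3.98, beside 0.03 over all genes. With the horse as a block, 126 genes were higher in the heart, 125 of them among the 195, and 0 in the lung, beside 20.2% and 25.1% of all genes tested. The filter over 12 libraries was passed in any of the 3 tissues. Many of the 258 genes passed it only through their liver reads, where the rule makes them high, so the numbers from that fit lean on these genes.

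When heart replicate 2 was left out, 75 genes were DEGs towards the heart and 16 towards the lung, beside 19.8% and 26.2% of all genes tested. All 75 were among the 195. The median log2 fold change was then -1.05. With the horse as a block and without heart replicate 2, the numbers were 82 and 14, beside 20.2% and 26.5%. The heart and lung libraries alone, without heart replicate 2, gave 52 and 8 of 133 tested genes, beside 19.7% and 27.2%. Values of single genes below are from fits that include the liver libraries. The heart and lung libraries did not overlap, with the heart higher, for 42 of the 259 genes both with and without heart replicate 2, compared with 22.7% and 25.2% of tested genes. With the lung higher, 0 genes did not overlap with heart replicate 2 and 11 without it, compared with 35.3% and 39.0% of tested genes.

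For the most abundant gene, ENSECAG00000010305, the LvsH log2 fold change was -4.62 ± 1.13 (SE, adjusted p = 0.0034, edgeR) with all libraries and -1.77 ± 0.467 (adjusted p = 0.0056) without heart replicate 2. ENSECAG00000021580 gave -2.58 ± 1.05 (adjusted p = 0.049) and -0.16 ± 0.643 (adjusted p = 0.84), so its call was lost without that library. It was also lost with the horse as a block, at -1.41 ± 0.835 (adjusted p = 0.17).

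The largest fitted LvsH changes towards the heart, among DEGs with at least 20 counts over the heart and lung, rested on few reads. ENSECAG00000021933 had 0, 21, 1 and 2 counts in heart replicates 1 to 4 and no count in the lung. The lower 95% counting limit of its pooled heart level over the lung was 20.6-fold with all libraries and 1.80-fold without heart replicate 2. Such limits pool the libraries of a tissue and leave out the spread between them. Its fitted log2 fold change was -6.57 ± 2.20 (adjusted p = 0.029, edgeR), and -3.96 (adjusted p = 0.17) without heart replicate 2. With the horse as a block the adjusted p was 0.057. ENSECAG00000018357 had 0, 33, 0 and 0 counts in heart replicates 1 to 4 and 1 count in the lung, a pooled ratio of 113, for which the 95% counting interval ran from 18.9 to 4604. Its fitted log2 fold change of -6.04 ± 2.28 (adjusted p = 0.037) became 1.06 (adjusted p = 0.84) without heart replicate 2. Neither gene was a DEG in edgeR's test without that library, and the second had no heart count there. In DESeq2 without that library, ENSECAG00000021933 was a DEG, with a log2 fold change of -4.12 (adjusted p = 0.0085). Both genes passed the filter on low counts only through their liver reads, where the rule makes them high. Their adjusted p values in edgeR's test lean on that choice.

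Other liver-restricted genes differed between heart and lung with or without heart replicate 2. These were chosen after their values had been seen, as the largest changes without that library. ENSECAG00000010900 had 28, 73, 14 and 30 counts in heart replicates 1 to 4 and 4, 0, 7 and 3 in lung replicates 1 to 4. Its log2 fold change was -5.23 ± 0.667 (adjusted p = 2.6e-05, edgeR) with all libraries and -4.52 ± 0.541 (adjusted p = 1.4e-05) without heart replicate 2. The normalised read counts of the heart, 23.4, 109, 51.2 and 28.7, lay above all 4 lung values, which reached 3.14 at most. In the liver it was read at 8618, 3734, 6021 and 6616, so that the heart stood below 1% of the liver of the same horse in 3 of 4 horses.

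ENSECAG00000020930 behaved likewise, with 9.20, 73.2, 25.6 and 7.65 normalised read counts in heart replicates 1 to 4 and 0, 0, 1.81 and 0.680 in lung replicates 1 to 4. Its log2 fold change was -5.08 ± 0.927 (adjusted p = 0.00056, edgeR) and -3.82 ± 0.727 (adjusted p = 0.00062) without heart replicate 2. For both genes the heart and lung libraries did not overlap. ENSECAG00000020930 passed the filter on low counts only through its liver reads, where the rule makes it high. Its adjusted p values lean on that choice.

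In the opposite direction, ENSECAG00000010495 had 0, 38, 1 and 1 counts in heart replicates 1 to 4 and 14, 33, 32 and 39 in lung replicates 1 to 4. Its log2 fold change was -0.38 ± 0.912 (adjusted p = 0.74, edgeR) with all libraries and 3.62 ± 0.589 (adjusted p = 0.00019) without heart replicate 2. ENSECAG00000038645 had 0, 18, 0 and 0 counts in the heart and 4, 11, 8 and 11 in the lung, and its log2 fold change went from -0.93 ± 1.03 (adjusted p = 0.45) to 5.27 ± 1.18 (adjusted p = 0.0027). In heart replicates 1, 3 and 4 these 2 genes were nearly without reads, and heart replicate 2 lay above every lung library for both. ENSECAG00000038645 passed the filter on low counts only through its liver reads, where the rule makes it high. Its adjusted p values lean on that choice.

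Within the liver, the 259 genes had wider ranges over the 4 horses than the genes of the same minimum level, which include them. Compared with all genes tested, their median range was close and fewer of them had the widest ranges. All genes tested include genes with few or no liver reads, whose ratios carry more counting error. Genes with no read in any liver were set to a ratio of 1. The comparison with all genes tested is therefore not at a like level. The ratio of the highest to the lowest liver library had a median of 1.85 over the liver-restricted genes, with quartiles of 1.52 and 2.42. Over the 6119 genes with a liver median of at least 200 the median was 1.49, with quartiles of 1.31 and 1.80, and over the 15436 genes tested it was 1.80, with quartiles of 1.41 and 3.05. A ratio of at least 2 was found for 106 liver-restricted genes, or 40.9%, compared with 17.3% of the 6119 genes and 42.7% of all genes tested. The share at a ratio of at least 5 was 7.34%, compared with 2.29% of the 6119 genes and 16.8% of all genes tested. At a ratio of at least 10 it was 3.86%, compared with 1.13% and 12.2%. These shares are descriptions with no test, since each horse gave 1 liver library and the spread within a horse was not measured.

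The livers did not share the extremes evenly. Liver replicate 1 was the highest library for 112 genes, replicate 2 for 49, replicate 3 for 65 and replicate 4 for 33. As shares these were 43.2%, 18.9%, 25.1% and 12.7%, compared with 30.7%, 29.2%, 21.2% and 19.0% of the 6119 genes. The lowest library was liver replicate 2 for 99 genes, replicate 4 for 71, replicate 3 for 57 and replicate 1 for 32. Taken over the 259 genes, the median level was 110%, 96.4%, 99.8% and 94.4% of the liver median in liver replicates 1 to 4, so liver replicate 1 stood somewhat above the rest.

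The steadiest liver-restricted gene was ENSECAG00000021568, with 646, 643, 598 and 661 normalised read counts in liver replicates 1 to 4, a ratio of 1.11. It was followed by ENSECAG00000002744 with 1127, 1128, 990 and 1006, a ratio of 1.14.

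The most variable one, ENSECAG00000037340, was read at 1.36, 1887, 0 and 1032 normalised read counts in liver replicates 1 to 4. These values stand for 1, 1981, 0 and 284 counts, so the livers of horses 2 and 4 held nearly all of its reads. The heart counts of horses 1 to 4 were 1, 26, 0 and 5, and the lung counts 0, 2, 0 and 3. The horses with more than 1 read in the liver were those with more than 1 read in the heart and the lung, where the reads were few. This gene did not pass the filter on low counts and was not tested.

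In 3 further genes the liver of horse 1 lay far below the others. ENSECAG00000013311 was read at 315, 37808, 83109 and 12596 normalised read counts in liver replicates 1 to 4, a ratio of 264 between the highest and the lowest. The next genes by this ratio were looked at after their values had been seen. ENSECAG00000014756 was read at 1553, 55077, 154620 and 34387, a ratio of 99.5. ENSECAG00000034516 was read at 909, 26499, 52268 and 10939, a ratio of 57.5. The order of the horses was the same in all 3 genes, with horse 3 the highest, followed by horses 2, 4 and 1. This order did not hold for every gene with a low liver of horse 1. ENSECAG00000001555 was read at 3789, 16988, 62287 and 34645, a ratio of 16.4, with the order of horses 3, 4, 2 and 1.

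In the lung of horse 3, the level of the 3 genes that shared the order was also above that of the other lungs. ENSECAG00000013311 stood at 76.4 normalised read counts in lung replicate 3, compared with 6.76 to 12.9 in the other lungs. For ENSECAG00000014756 the lung values were 27.5, 17.9, 137 and 25.5. ENSECAG00000034516 had lung values of 5.50, 18.3, 73.7 and 15.6. In the heart, all 3 genes were highest in replicate 2, at 1441, 2561 and 1278 normalised read counts in the order above, followed by replicate 3 at 132, 351 and 220.

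**Figure D5:**
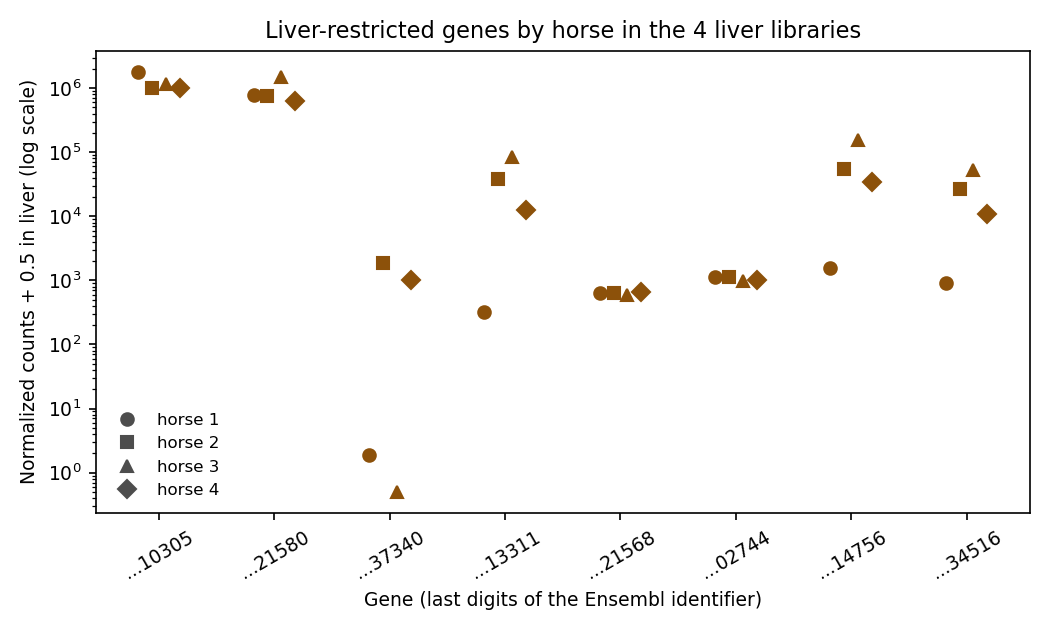
Normalised read counts plus 0.5 (log axis) in the liver of each horse for 8 liver-restricted genes, labelled by the end of the Ensembl identifier, with 1 point per liver library and the horse given by the shape. The 2 steadiest genes have points close together, and the 2 most abundant ones, ENSECAG00000010305 and ENSECAG00000021580, span 1.77-fold and 2.34-fold. ENSECAG00000037340 has 1887 and 1032 in horses 2 and 4 and at most 1.36 in horses 1 and 3. ENSECAG00000013311, ENSECAG00000014756 and ENSECAG00000034516 share the order of horses, with horse 1 the lowest and horse 3 the highest.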

How the data were processed

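RNA-seq libraries of 12 horse tissue pieces were analysed. The deposited values are raw read counts per gene in 1 file per library; the authors aligned reads to EquCab3.0 with TopHat2, counted them with HTSeq and tested them with DESeq2. The polyadenylated RNA kit marks no strand; the strand setting and annotation release are not given in the sources used here. HTSeq sets aside reads of several places or genes, so near-identical or overlapping genes are uncertain. Its summary rows, 26.8% to 37.9% of listed reads, were left out.

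The genes and tests were chosen with earlier results of these data known. Counts were tested in R 4.3.3 with edgeR 4.0.16: default low-count filter by tissue, TMM scaling and 1 robust quasi-likelihood fit of 12 libraries, with Benjamini-Hochberg adjustment over all genes tested. DEGs passed an adjusted p of 0.05 and changed at least 2-fold, a log2 value of 1. Fold changes are first over second tissue named. Their SE is the fold change over the square root of F. DESeq2 1.42.0, other scalings, no filter, a horse block and left-out libraries were alternatives.

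Horse numbers pair libraries because the labels give 1 number per animal. Across genes, deviations from tissue means correlated at 0.087 to 0.372 within horses (12 pairs, median 0.131) and at a median of -0.055 between horses (36 pairs). The pairs between horses reached 0.128, for heart replicate 4 with lung replicate 1, so the 2 ranges overlapped. The RefSeq gene table of a different horse assembly holds no Ensembl identifiers, so 0 were paired with symbols, and planned gene lists, gene positions and sequences were not used here. Genes named, at most 2 per item and direction, were the most abundant, the largest LvsH changes among DEGs with at least 20 heart and lung counts, the extremes in liver spread and in percent in heart replicate 2, and those nearest the limits of the rule.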

Additional observations from a re-analysis of the deposited data

Results flagged for a closer look

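In groups of 4 libraries, 1 library was set apart from the other three by Dixon's criterion for 19 of 53 values of the liver-restricted genes. The criterion's rate of about 1 in 20 for a single group holds for normally distributed values. These values were untransformed counts and percents, many of them low, so that rate cannot be set against the 19. The genes were named partly for extreme values, some of them in heart replicate 2, and share the same libraries, so the 53 values are not independent trials. Heart replicate 2 accounted for 14 of the 19. Its share of gene counts in liver-restricted genes was 1.21% and its median percent of the liver level 3.01%. Normalised read counts set apart in heart replicate 2 were 32915 for ENSECAG00000010305, 23684 for ENSECAG00000021580, 31.4 for ENSECAG00000021933, 49.3 for ENSECAG00000018357 and 38.8 for ENSECAG00000037340. The same library was apart at 1441 for ENSECAG00000013311, 2561 for ENSECAG00000014756, 1278 for ENSECAG00000034516, 53.8 for ENSECAG00000002744 and 85.1 for ENSECAG00000014889. It was apart as well at 26.9 for ENSECAG00000038645 and 56.8 for ENSECAG00000010495.

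Lung replicate 3 was apart at 76.4 normalised read counts for ENSECAG00000013311 and at 137 for ENSECAG00000014756, both the highest lung values. Lung replicate 4 was apart, as the lowest, at 1.70 for ENSECAG00000021568. In the liver, replicate 2 was apart at 1164 for ENSECAG00000038645 and replicate 4 at 1181 for ENSECAG00000010495, both the lowest values.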

How the results depend on the processing

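The number of liver-restricted genes was 156 when the mean of a tissue's libraries replaced the median and 269 with the mean but without heart replicate 2; the other 22 alternatives stayed within 1.5 times of 259, and leaving out 1 library or horse gave 246 to 279. The LvsH numbers rested on heart replicate 2. Higher in the heart were 90 genes with library totals alone, 89 of 129 tested with the heart and lung libraries only, 126 with the replicate block of horses, 75 without heart replicate 2, 82 with both of these, 52 of 133 tested with the heart and lung libraries only and without it, and 95 with DESeq2 and without it. Higher in the lung were 5, 0, 0, 16, 14, 8 and 19 in the same order. Library totals moved the median LvsH log2 fold change of all genes to 1.85. Over single libraries left out, 75 to 213 genes were higher in the heart and 0 to 16 in the lung. With no filter 158 genes, and with DESeq2 177, were higher in the heart. The fold change of ENSECAG00000018357 turned to 1.06 without heart replicate 2 and to 0.51 with the block and without it, and ran from -6.83 to 1.06 over single libraries left out. The median percent in heart replicate 2 was 2.66% with library totals and 2.95% to 3.12% over livers left out. The median liver ratio was 1.55 to 1.69 over livers left out, as fewer libraries give a smaller range. The liver share was 19.9% without the 10 most abundant genes and 45.8% to 48.0% over livers left out. The cause of the other changes was not tested. Alternatives that combine a change with leaving out heart replicate 2 were chosen after seeing the data. At 4 horses and few reads per gene in heart and lung, depth limits LvsH for rarely read genes.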
